A study of Homo sapiens with 4 samples.

Results

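The genes described here are 10 published targets of the microRNA miR-210: EFNA3, ACVR1B, PTPN1, E2F3, RAD52, ISCU, SDHD, NDUFA4, COX10 and GPD1L. They were chosen from the literature by name, with earlier results of these data known. Every probe set annotated to 1 of these symbols alone was taken. They make up 10 of the 19775 genes with a named probe set on the array, and 24 of its 54675 probe sets. The cells were T84, an established human line from a colorectal carcinoma, which polarises into an epithelium when grown on a permeable support. Each of 4 groups gave 1 Affymetrix U133 Plus 2.0 array of messenger RNA. Cells of the 2-miRNA group were transfected with miR-451 and miR-338-3p, and cells of the 4-miRNA group with this pair plus miR-33a and miR-210. Both were collected on day 5 after transfection. The control cells received a short RNA with little similarity to human miRNAs and were collected on day 5 or day 7. All cells were plated at 500000 per well on filters of 24 mm and were given 15 pmol of oligonucleotide. The labels do not say if that amount was shared by the miRNAs of a mix or given of each, so a lower dose of the miRNAs held by both mixes cannot be told apart from the addition of miR-210 and miR-33a.

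A microRNA (miRNA) guides the silencing complex to messenger RNAs that pair with its seed, the bases near its 5′ end, and lowers their level or their translation. miR-210 is the miRNA most widely known for its induction by low oxygen, through the hypoxia-inducible factor HIF. Many of its published targets serve iron-sulfur cluster assembly and mitochondrial respiration, and others serve the cell cycle, DNA repair and signalling at the cell surface. A change in translation alone leaves the messenger RNA level, which is what the arrays read, as it was.

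The mature miRNAs are shown because the seed sets which transcripts each can pair with; capitals mark the seed, bases 2 to 8, in the RefSeq sequences of build GRCh38.p14.
miR-210-3p: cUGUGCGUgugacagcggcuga
miR-33a-5p: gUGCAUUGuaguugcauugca
miR-338-3p: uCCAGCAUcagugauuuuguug
The labels name no arm for miR-210 and miR-33a, and the arm that each name has long stood for is printed. miR-210-3p lies at chr11:568112-568133 on the minus strand in the gene MIR210. miR-33a-5p lies at chr22:41900949-41900969 on the plus strand in MIR33A, and miR-338-3p at chr17:81125887-81125908 on the minus strand in MIR338. The 3 seeds printed are distinct. A transcript pairs with the whole miR-210 seed where it carries ACGCACA. Of the 22 bases of miR-210-3p, 14 are G or C, against 9 of 21 in miR-33a-5p and 9 of 22 in miR-338-3p. miR-451 is named only.

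Signals are given on a scale on which the trimmed mean of each array is 500, and each difference is between log2 values taken after 32 was added, which understates the differences of dim genes. The median probe set was at 81.6 to 99.3 on the 4 arrays. As deposited, the trimmed means were 147 and 150 on the miRNA arrays and 76.6 and 74.3 on the control arrays, so brightness and miRNA treatment coincide and cannot be told apart. With 1 array a group there is no replicate and no test, and the spread between cultures was not measured. As a measure of probe set error, the SD specific to a probe set was taken from genes with a pair of bright probe sets (mean log2 from 9 upwards). It was 0.18 for the 4-miRNA array minus the 2-miRNA array, 0.27 between the controls, and 0.58 for either miRNA array minus the day 5 control. All 8 colonic epithelium markers, such as EPCAM and CDX2, were expressed. Of the other markers with a probe set, 2 of 6 fibroblast genes (COL1A1, COL1A2) passed the filter on low signal. So did 3 of 4 leukocyte genes (CD3E, LYZ, ITGAM) and 1 of 4 endothelium genes (PECAM1). Over the arrays the summed signals of those lists were 404 to 640, 379 to 821 and 219 to 367. The epithelial list summed to 157983 to 212637. LYZ read 490 with 2 miRNAs and 462 with 4, against 111 in the day 5 control and 144 in the day 7 control. Both miRNA readings were above the 75th percentile of their arrays (405 and 399). PTPRC, COL3A1, CDH5 and VWF, defining genes of those other cells, did not pass, and the part of other cells in the results was not tested.

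EFNA3, a membrane-anchored ephrin ligand of EphA receptors, was the one member at least 2-fold apart between the 4-miRNA and the 2-miRNA array. Its scaled signal was 119 with 4 miRNAs, 395 with 2 miRNAs, 259 in the day 5 control and 366 in the day 7 control. The array of the cells given miR-210 was the lowest of the 4. On the log2 scale the other 3 lay closer to each other than any of them lay to it. EFNA3 was 2.83-fold lower with 4 miRNAs than with 2 (log2 difference −1.50), at rank 36 from the lowest of 12264 expressed genes. It was lower than the day 5 control by a log2 difference of −0.94 and lower than the day 7 control by −1.40. The 2-miRNA array was above the day 5 control by 0.56, and the day 7 control was above the day 5 control by 0.45. Those differences share arrays and are not separate evidence.

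EFNA3 rests on its single probe set, and it is a dim gene, at the 58.1st percentile of probe sets on the 4-miRNA array and the 74.6th on the 2-miRNA array. Dim genes scatter more: among the 400 genes nearest to it in mean level, the SD of the same difference was 0.44, and 9 were at least 2-fold lower. Only 2 of those 400 had a lower difference than EFNA3. For the 4-miRNA array minus the day 5 control the neighbours' SD was 0.72. There 33 of the 400 were lower than EFNA3, and 28 were at least 2-fold lower. For the same array minus the day 7 control the SD was 0.65, and 4 were lower than EFNA3. Between pairs of probe sets of 1 gene at a mean log2 of 7.5 to 8.5, the SD specific to a probe set was 0.38 between the miRNA arrays. For the 4-miRNA array minus the day 5 control it was 0.61. Over the alternative scalings, pseudocounts and probe set rules that kept the gene, its difference between the miRNA arrays lay between −1.61 and −1.33. A filter at the 70th percentile of mean signal removed it.

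**Figure D1:**
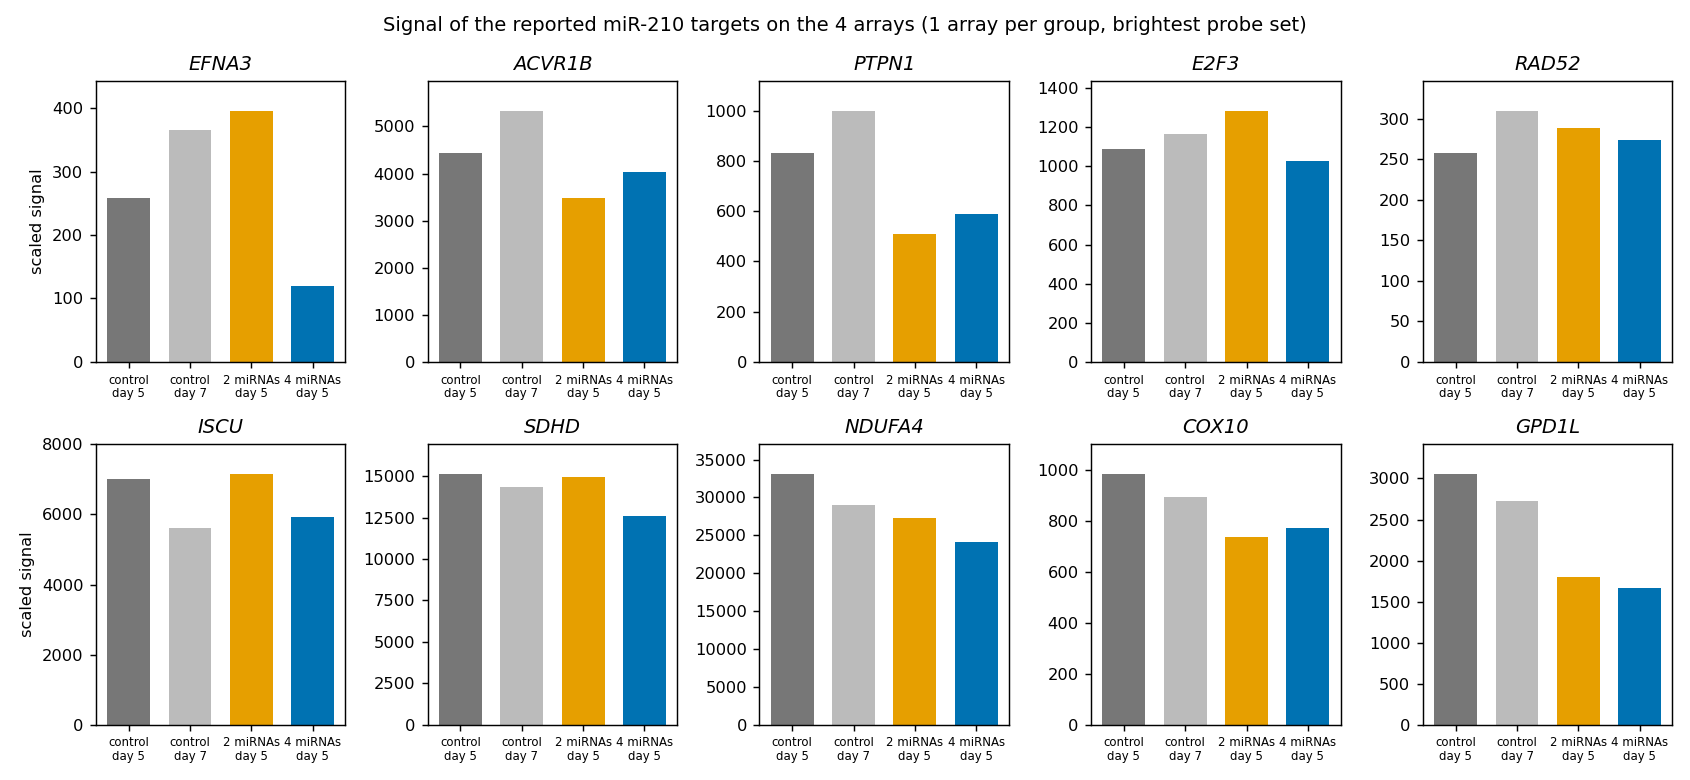
Scaled signal (linear axis from 0, trimmed mean of each array set to 500) of the brightest probe set of each of the 10 genes, 1 bar per array and no error bars because no group had a replicate. EFNA3 is lowest with 4 miRNAs (119), while ISCU, SDHD and NDUFA4 are bright on all 4 arrays and GPD1L is lower on both miRNA arrays than on both controls.

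Of the 5 metabolic members, ISCU, SDHD, NDUFA4 and GPD1L were lower with 4 miRNAs than with 2, and COX10 was slightly higher; the 5 differences lay between −0.27 and 0.06 with a median of −0.18. ISCU, the scaffold on which mitochondrial iron-sulfur clusters are built, had a scaled signal of 5936 with 4 miRNAs, 7160 with 2 miRNAs, 7018 in the day 5 control and 5622 in the day 7 control. It was 1.21-fold lower with 4 miRNAs than with 2 (−0.27). The day 7 control, which was given none of the miRNAs, was lower still, so the 4-miRNA value lay within the range of the controls.

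SDHD, a membrane anchor of succinate dehydrogenase (respiratory complex II), had a scaled signal of 12605 with 4 miRNAs, 14935 with 2 miRNAs, 15140 in the day 5 control and 14323 in the day 7 control. The 4-miRNA array was 1.18-fold below the 2-miRNA array (−0.24). It was also below both controls as scaled here, but above the day 7 control with running-median centring (0.06) and above both with scaling to a common median (0.02 and 0.09). Its second probe set was under the array median on 3 of 4 arrays and did not pass the filter.

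NDUFA4, a subunit now placed in cytochrome c oxidase (complex IV) and listed under the newer symbol COXFA4 in the annotation, was the brightest member. Its scaled signal was 24103 with 4 miRNAs, 27234 with 2 miRNAs, 33122 in the day 5 control and 29023 in the day 7 control. The 4-miRNA array was 1.13-fold below the 2-miRNA array (−0.18). It was below the day 7 control by −0.27 as scaled here, but above it with quantile normalization (0.03), running-median centring (0.13) and scaling to a common median (0.01).

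These 3 differences are small, but bright genes scatter little between the miRNA arrays. Among the 400 genes nearest in mean level, 15 were lower than ISCU, 11 were lower than SDHD and 27 were lower than NDUFA4. The SD of those neighbours was 0.17, 0.16 and 0.13. Against the day 5 control the neighbours scatter more, and there 148, 146 and 127 of 400 were lower than the 4-miRNA values of the same 3 genes. Against the day 7 control 238, 182 and 217 of 400 were lower. Each of the 3 had 1 probe set that passed the filter, so none has a second reading.

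GPD1L, a relative of cytosolic glycerol-3-phosphate dehydrogenase that has been linked to the turnover of HIF, had a scaled signal of 1671 with 4 miRNAs, 1800 with 2 miRNAs, 3057 in the day 5 control and 2722 in the day 7 control. Both miRNA arrays lay below both controls, and the miRNA arrays differed from each other by −0.11. Against the day 5 control the difference was −0.86 with 4 miRNAs and −0.75 with 2, the second without added miR-210. COX10, which makes a heme precursor for cytochrome c oxidase, had signals of 769, 734, 983 and 892 on the same arrays in the same order. It differed by 0.06 between the miRNA arrays, with 246 of 400 level neighbours lower.

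The members outside metabolism went in both directions. E2F3, a transcription factor of S phase genes that the retinoblastoma protein binds, had 2 probe sets that passed the filter. The brighter one read 1025 with 4 miRNAs, 1283 with 2 miRNAs, 1090 in the day 5 control and 1167 in the day 7 control, and the second read 439, 641, 847 and 907. On both, the 4-miRNA array was the lowest, with differences of −0.31 and −0.51 from the 2-miRNA array. From the day 5 control the brighter probe set differed by −0.09, which became 0.02 with running-median centring and 0.19 with scaling to a common median, and the second by −0.90. Among 400 level neighbours 33 were lower than E2F3 between the miRNA arrays.

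ACVR1B, a type I receptor for activins, had 4 probe sets that passed. The brightest read 4036 with 4 miRNAs, 3483 with 2 miRNAs, 4428 in the day 5 control and 5325 in the day 7 control. The 4-miRNA array was the higher of the miRNA pair on all 4 probe sets, by 0.21, 0.43, 0.04 and 0.06. Of the level neighbours 352 of 400 were lower than ACVR1B.

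PTPN1, a tyrosine phosphatase that acts on the insulin receptor, read 588 with 4 miRNAs, 509 with 2 miRNAs, 831 in the day 5 control and 999 in the day 7 control on the probe set that passed. It was below both controls on both miRNA arrays, and higher with 4 miRNAs than with 2 by 0.20. RAD52, which anneals single strands of DNA in recombination, read 274, 288, 258 and 309 on the same arrays and was nearly level. Its 3 passing probe sets differed between the miRNA arrays by −0.07, 0.32 and −0.20, so they did not share a sign.

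**Figure D2:**
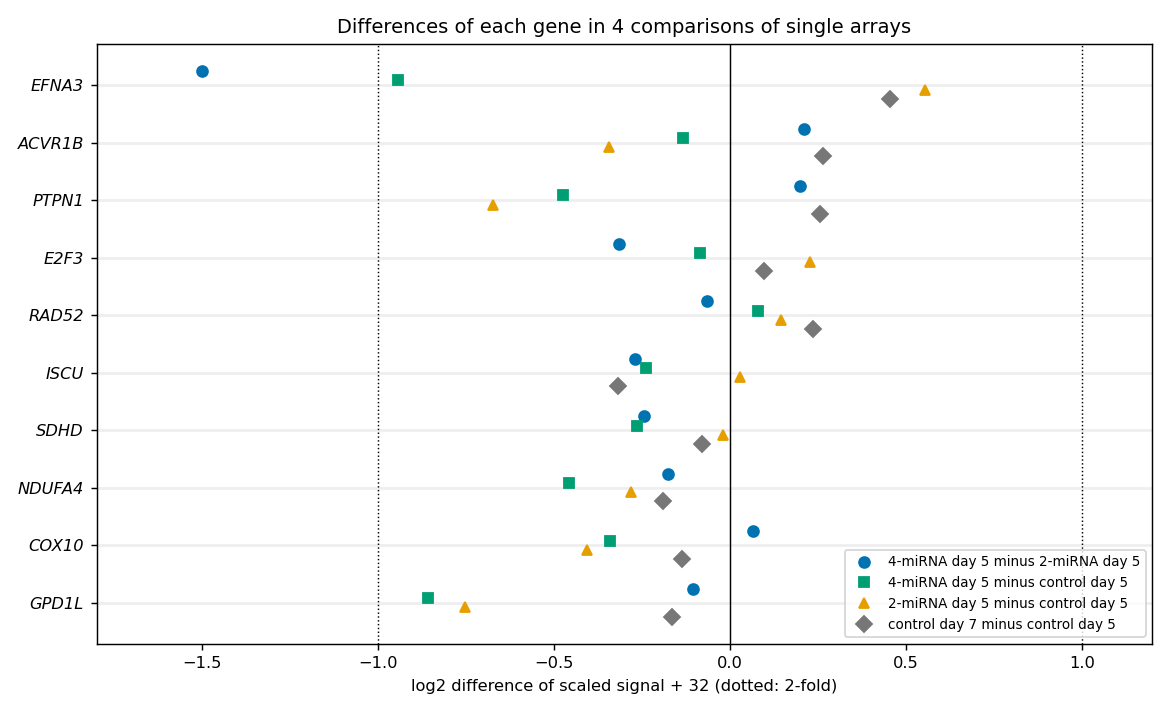
Log2 difference (scaled signal plus 32) of each gene in 4 comparisons of single arrays, with dotted lines at 2-fold. EFNA3 is the gene past 2-fold, at −1.50 for 4 miRNAs minus 2 miRNAs. Minus the day 5 control, 9 of 10 lie below 0 with 4 miRNAs (59% of all genes) and 6 of 10 with 2 miRNAs (59.4%). Those 6 are ACVR1B, PTPN1, SDHD, NDUFA4, COX10 and GPD1L. With quantile normalization or running-median centring SDHD and NDUFA4 are above 0 with 2 miRNAs, as is SDHD with scaling to a common median.

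Between the 4-miRNA and 2-miRNA arrays, 1 of 10 members was at least 2-fold lower, where 1.33% of all expressed genes were, and 0 of 10 were at least 2-fold higher, where 1.04% were (2.37% apart in either direction). The members below 0 numbered 7 of 10 against 49.2% of all genes, and the median difference was −0.14 against 0.00. RAD52, the smallest of the 7, was above 0 with scaling to a common median and with the median over probe sets. The 4-miRNA array was the lowest of the 4 for EFNA3, E2F3, SDHD, NDUFA4 and GPD1L, 5 of 10 where 27.2% of all genes were lowest there, and it was the highest for 0 of 10, where 16.5% of genes were. That count of 5 was 2, EFNA3 and GPD1L, with running-median centring (24.4% of genes) and with scaling to a common median (14.8%), and 4 with quantile normalization (24.7%). The 2-miRNA array was the lowest for 3 members (30.3% of genes) and the highest for 3 (18.7%). The day 5 control was the lowest for 1 (25.2%) and the highest for 4 (36.7%), and the day 7 control the lowest for 1 (17.2%) and the highest for 3 (28.1%). With 10 genes chosen from the literature, these counts describe the members and are not a test.

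**Figure D3:**
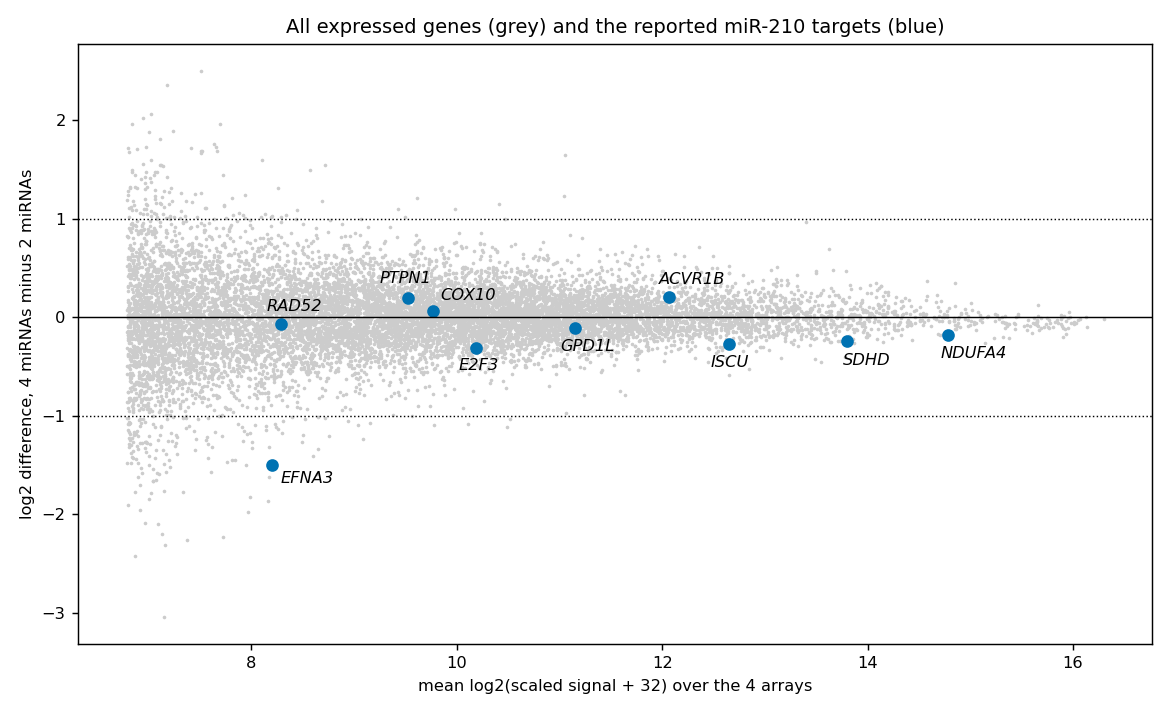
Log2 difference of the 4-miRNA minus the 2-miRNA array (vertical) against mean log2 signal over the 4 arrays (horizontal) for 12264 expressed genes, with the 10 members in blue. The grey cloud narrows as signal grows; EFNA3 is below the lower 2-fold line, and ISCU, SDHD and NDUFA4 lie near the lower edge of the narrow, bright end.

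Against the day 5 control, 0 of 10 members were at least 2-fold apart on the 4-miRNA array, where 14.7% of all genes were (6.7% lower and 8.03% higher), and 0 of 10 on the 2-miRNA array, where 14.5% were (6.37% lower and 8.11% higher). With 4 miRNAs 9 of 10 members were below 0 against 59% of genes, RAD52 at 0.08 being the exception, and the median was −0.30 against −0.15 for all genes. With scaling to a common median 5 of 10 were below 0, against 42.3% of genes. With 2 miRNAs and no added miR-210, 6 of 10 were below 0 against 59.4% of genes, with a median of −0.15 against −0.16. With quantile normalization or running-median centring 4 of 10 were below 0 with 2 miRNAs, against 58.2% and 54% of genes, and the members' median was above that of all genes by 0.16 and 0.17. Other settings went the other way. With the median over probe sets 8 of 10 were below 0 with 2 miRNAs, against 58.5% of genes. The members' median less that of all genes was then −0.05, and it was −0.12 with the 70th percentile filter. Both comparisons use the same control array.

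Between the controls, which differ in days on the filter, 0 of 10 members were at least 2-fold apart where 5.76% of genes were (2.41% lower and 3.35% higher). Below 0 were 5 of 10 against 50.7% of genes, and the median was 0.01. On day 7 against day 5, ISCU, SDHD, NDUFA4, COX10 and GPD1L were lower, with differences of −0.32 to −0.08, and EFNA3, ACVR1B, PTPN1, E2F3 and RAD52 were higher, with differences of 0.10 to 0.45. The SD of 0.27 given above is for bright probe sets, and it changed with level. It was 0.55 at a mean log2 of 7.5 to 8.5, where EFNA3 and RAD52 lie. At 9.5 to 11, where PTPN1, E2F3 and COX10 lie, it was 0.30, and from 11 upwards it was 0.186. Outside the SD of their own band were ISCU (−0.32), ACVR1B (0.26) and, barely, NDUFA4 (−0.190). The relatives of the members went both ways. Of the other succinate dehydrogenase genes, 6 of 6 were above 0 (median 0.31). Below 0 were 10 of 13 iron-sulfur assembly genes (median −0.39) and 13 of 15 oxidase assembly factors (median −0.09). Of the other oxidase subunits 9 of 10 were above 0, but 2 of 10 with quantile normalization. Against the day 7 control the 4-miRNA array had EFNA3 as its 1 member at least 2-fold lower, where 4.15% of all genes were, and 0 at least 2-fold higher, where 5.63% were (9.78% apart). The 2-miRNA array had 0 in either direction, where 4.03% of genes were lower and 6.19% higher (10.2% apart). Below 0 against the day 7 control were 9 of 10 members with 4 miRNAs (60.9% of genes), ISCU being the exception, and 6 of 10 with 2 miRNAs (61.1%). With scaling to a common median each of these counts was 4 of 10, where 41.3% and 49.6% of genes were below 0.

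Other published targets of miR-210 did not share the members' lean. Of 32 listed, 24 were expressed, and 0 were at least 2-fold apart between the miRNA arrays, where 2.37% of all genes were. Of the 24, 18 were above 0 (15 with running-median centring) and 6 below, against 49.2% of all genes below 0. Their median was 0.14. The lowest was SMCHD1, a chromatin protein of X inactivation, at −0.57 (562 with 4 miRNAs against 850 with 2). The highest was MID1IP1, a regulator of lipid synthesis, at 0.55 (690 against 460).

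Relatives of the members were set beside them. Of 7 expressed ephrin-A ligands and EphA receptors, 0 were at least 2-fold apart between the miRNA arrays, where 2.37% of all genes were. With a pseudocount of 16 the count was 1. The median of the list was 0.08. It was −0.19 over the 5 genes that passed a filter at the 70th percentile. The ligand EFNA4 was at −0.38, EFNA1 at 0.08 and the receptor EPHA10 at 0.88. EPHA10 was dim, at 125 with 4 miRNAs and 53.4 with 2, the second under the median probe set of its array (87.3). Of 12 expressed E2F factors, partners and pocket proteins, 10 were above 0 and 2 below, where 49.2% of all genes were below 0. The median was 0.17, from E2F6 at −0.30 to E2F5 at 0.35, while E2F3 was at −0.31.

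Among the partners of the metabolic members, 13 iron-sulfur assembly genes had a median of 0.00, from HSCB (−0.29) to FDX2 (0.63). The other 6 expressed succinate dehydrogenase subunits and assembly factors had a median of −0.11, from SDHAF3 (−0.26) to SDHA, the catalytic flavoprotein (0.39). The 10 other subunits of cytochrome c oxidase lay between −0.14 (COX7A2) and 0.06 (COX6B1). Below 0 were 7 of them (49.2% of all genes), but 1 with scaling to a common median (35.5%). NDUFA4 at −0.18 was below all 10. The 15 assembly factors of that oxidase had a median of −0.07, from SCO1, a copper chaperone (−0.38), to PET117 (0.17), and with scaling to a common median 0.02. Glycerol phosphate genes numbered 4, from GPAM (−0.25) to AGPAT2 (0.22). None of the genes in these metabolic lists was at least 2-fold apart between the miRNA arrays, where 2.37% of all genes were.

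Activin and TGF-β receptors and SMADs, 11 in number, had a median of 0.09, from ACVR1C (−0.37) to ACVR2A (0.29). The 8 expressed insulin pathway and phosphatase genes had a median of 0.16, from PTPN9 (−0.03) to IRS2, an adaptor of the insulin receptor (0.61). Genes of homologous recombination leaned to the lower side. Of 13, 11 were below 0, where 49.2% of all genes were, with a median of −0.27. The 13 ran from RAD51C (−0.66, 462 against 747) and XRCC2 (−0.54) to RPA1 (0.16), while RAD52 was at −0.07. Their count below 0 was 9 with scaling to a common median (35.5% of genes) and 8 with the median over probe sets (51.1%). At least 2-fold apart were 0, against 2.37% of genes.

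**Figure D4:**
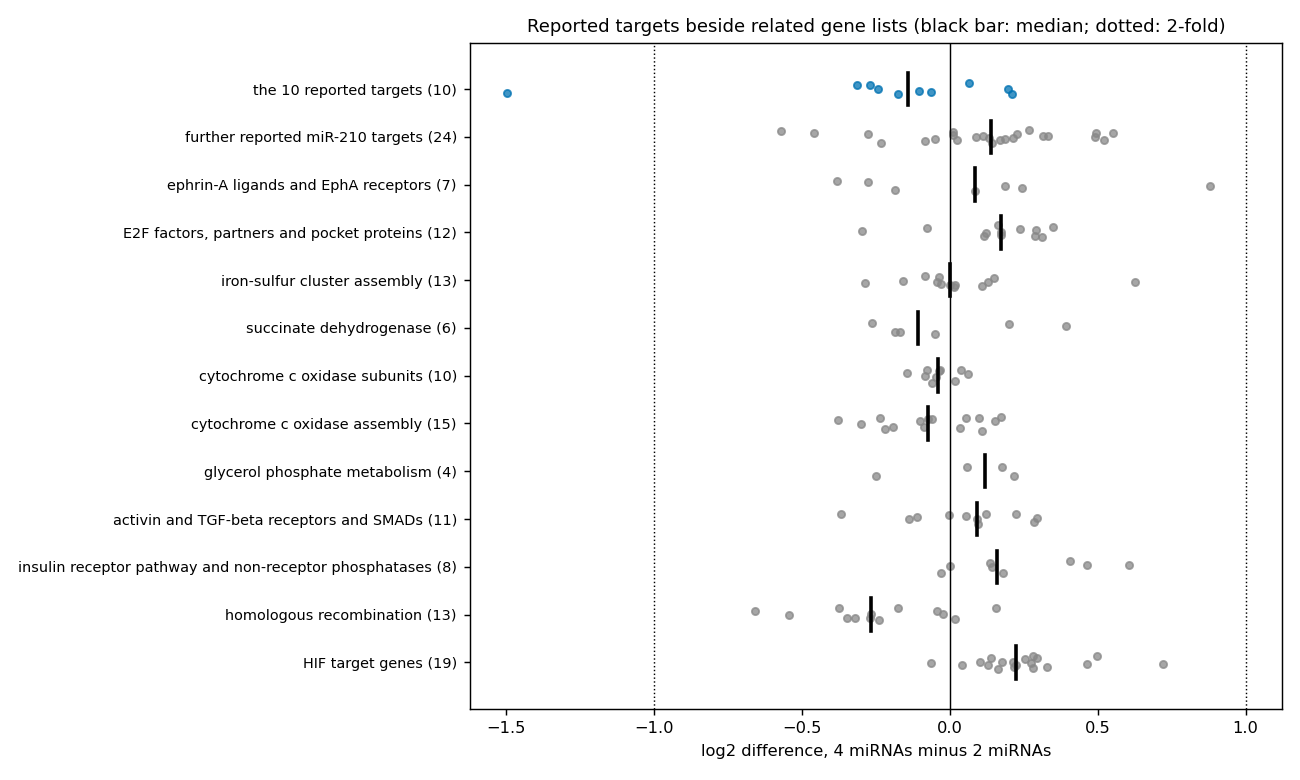
Log2 difference of the 4-miRNA minus the 2-miRNA array for each expressed gene, by list, with the number of genes in brackets, a black bar at each median and dotted lines at 2-fold. The 10 reported targets have a median of −0.14, the further reported targets 0.14, homologous recombination −0.27 and HIF target genes 0.22.

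The cells' own miR-210 comes from MIR210HG, its host transcript, which 2 probe sets on the array read. The brighter one was at 288 in the day 5 control, 987 in the day 7 control, 637 with 2 miRNAs and 681 with 4 miRNAs. The second was at 277, 515, 316 and 425. The day 5 control was the lowest and the day 7 control the highest on both. Above the day 5 control the brighter probe set was higher by 1.67 on day 7, 1.06 with 2 miRNAs and 1.15 with 4 miRNAs, and the second by 0.82, 0.17 and 0.56. Between the miRNA arrays the host transcript differed by 0.09 and 0.39. The transfected oligonucleotide itself is not read by these probe sets, so delivery of miR-210 was not measured.

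**Figure D5:**
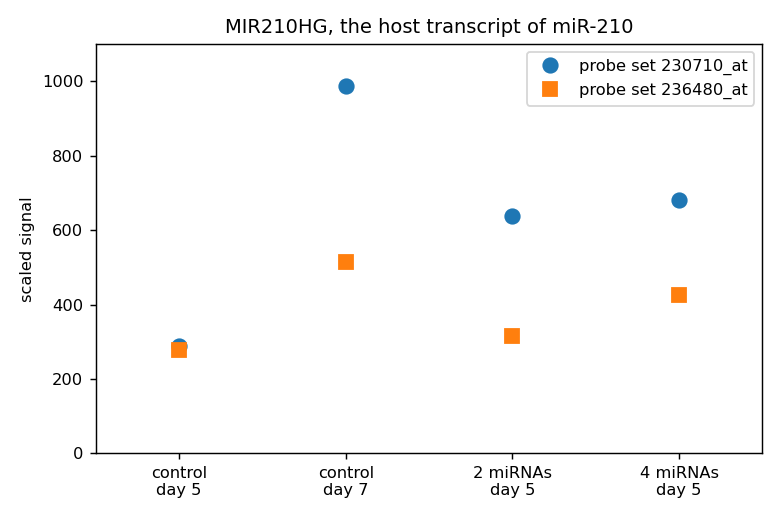
Scaled signal (linear axis from 0) of the 2 MIR210HG probe sets on each of the 4 arrays, 1 point per probe set and array. On both probe sets the day 5 control is lowest (288 and 277) and the day 7 control highest (987 and 515), with the miRNA arrays between them.

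The promoter of MIR210HG is shown because HIF is known to drive this transcript, and capitals mark the core of a HIF binding motif, ACGTG, searched on both strands (CACGT on the other). It runs from 250 bases before to 50 bases after the RefSeq start site, chr11:568408-568707 on the minus strand of GRCh38.p14.
MIR210HG: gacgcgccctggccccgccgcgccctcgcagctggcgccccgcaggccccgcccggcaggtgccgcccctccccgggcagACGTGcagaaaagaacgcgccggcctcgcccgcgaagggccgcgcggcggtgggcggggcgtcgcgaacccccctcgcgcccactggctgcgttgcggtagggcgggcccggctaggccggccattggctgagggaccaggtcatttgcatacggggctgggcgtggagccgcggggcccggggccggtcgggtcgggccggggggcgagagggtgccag
The window holds 1 match, which begins 170 bases upstream of the start site, and the 5′ end of miR-210-3p lies 324 bases downstream of that site. Of 35116 RefSeq promoter windows of this length, 21.4% hold the motif. Among the members ACVR1B, E2F3 and GPD1L hold it in 1 window each, 3 of 13 windows, and those of ACVR1B and E2F3 are the palindrome in which both strands' matches overlap. A match of 5 letters is a description of the sequence alone.

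Most HIF target genes were higher on the other 3 arrays than in the day 5 control. Of 19 expressed, 17 were at least 2-fold higher with 4 miRNAs, where 8.03% of all genes were, 12 with 2 miRNAs (8.11%) and 12 in the day 7 control (3.35%). EGLN3, one of the oxygen sensors whose hydroxylation of HIF leads to its breakdown, read 273 in the day 5 control, 1381 in the day 7 control, 1414 with 2 miRNAs and 2011 with 4. Between the miRNA arrays the 19 targets differed by −0.06 to 0.72 with a median of 0.22. In the same comparison the subunits of HIF differed by −0.23 (HIF1A), 0.45 (EPAS1) and 0.09 (ARNT) on their brightest probe sets. The second passing probe set of EPAS1 was at 0.10. The other passing probe sets of ARNT were at −1.64, −0.90, −0.08 and 0.59. What part this had in the members' levels against the day 5 control was not tested.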

How the data were processed

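Messenger RNA from 4 T84 cultures was read on 1 array each. Per the submitters' processing notes, MAS5 gave the deposited intensity of each probe set; the sources used here do not give its version or scaling target. Probe sets numbered 54675, of which 41097 had 1 gene symbol in the platform annotation, 1801 had more than 1 and took no part, and 11777 had no name here. Names were updated through gene ID with the NCBI table of GRCh38.p14 (41043 matched), used for names alone. Here each array was scaled to a mean of 500 after leaving out 2% at each end, and 32 was added before log2, with Python 3.11.15 and pandas 2.3.3. A probe set passed when its mean log2 reached the median of all, or any array its 75th percentile; 16 of 24 member probe sets and all 10 members passed. Each gene was read from its passing probe set of highest mean log2. All members were named; listed genes were named at the extremes of each list, with others chosen after their values were seen. Members and lists were chosen with earlier results of these data known. With 1 array a group no test was made. The code was tested on simulated data.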

Additional observations from a re-analysis of the deposited data

How the results depend on the processing

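Of 8 alternatives, all were run: quantile normalization, running-median centring, scaling to a common median, pseudocounts of 16 and 64, a 70th percentile filter, no filter, and the median over probe sets. For the 4 comparisons plotted, the members' counts at least 2-fold apart were as reported under the alternatives not named here, and their medians moved by less than the probe set SD divided by the square root of 10. With scaling to a common median, which moved the median of all genes from 0.00 to 0.10 for 4 minus 2 miRNAs, from −0.15 to 0.12 for 4 miRNAs minus the day 5 control and from −0.16 to 0.01 for 2 miRNAs minus it, the members' median was −0.045 for 4 minus 2 miRNAs, −0.026 for 4 miRNAs minus the day 5 control and 0.035 for 2 miRNAs minus that control. With running-median centring the last was 0.11. The 70th percentile filter removed EFNA3, so that 0 members were at least 2-fold apart between the miRNA arrays, and the median between the controls became −0.080. With a pseudocount of 16, 1 member, EFNA3, was at least 2-fold apart between the 4-miRNA array and the day 5 control. Of 474 values of single members under the alternatives, 1 moved by more than the SD of bright probe sets. It was RAD52 between the miRNA arrays, from −0.07 to 0.25 with the median over probe sets. The SD of bright probe sets was 0.18 there. At the level of RAD52, a mean log2 of 7.5 to 8.5, it was 0.38, which is more than the move. The number of arrays limits the precision.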

Other observations

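The 8 member probe sets that did not pass the filter on low signal were left out of the values above. Of PTPN1, 3 such probe sets read 5.05 to 38.5 with 4 miRNAs and up to 46.0 with 2 miRNAs, and one of them reached 219 in the day 5 control against 26.6 in the day 7 control. A dim probe set of SDHD read 86.2 with 4 miRNAs and 8.52 with 2 miRNAs, the opposite direction to the bright probe set of that gene. A dim probe set of COX10 read 172 in the day 7 control and 17.0 in the day 5 control.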
